A study of Mus musculus with 109 samples.

Results

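The 8 astroglial marker genes Gfap, Fabp7, Slc1a3, Aqp4, Aldh1l1, Gdf10, Apoe and Sparcl1 were followed in the single cells of a granule cell progenitor (GCP) preparation from mouse cerebellum. They are 8 of the 15973 genes in the count table and were taken by symbol, not by their level. The cells came from P7 mice of the C57BL/6 strain, without treatment or genetic change in the labels, and the study used them to examine Notch signaling between GCPs. They were separated on a Percoll density gradient, taken up one at a time by a C1 Fluidigm system and turned into single-cell Smart-seq libraries. The labels named all cells granule precursor cells, gave neither sex nor the number of animals behind the preparation, and carried a library code that forms 6 groups, called library groups here, of which 1 held 19 cells and 5 held 18. All of these cells were used, 79 without a member at 100 counts per 1e6 or more, 25 with 1 to 3 such members and 5 with 5 or 6. Cells of a library group are not independent replicates, and nothing in the labels said that the groups were separate preparations. Each level is given as CPM, the count of a gene scaled to counts per 1e6 in its cell.

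Astroglia of the cerebellar cortex include the Bergmann glia, whose fibers guide migrating granule cells, and the astrocytes of the deeper layers. They take up the glutamate that neurons release, regulate water and ion balance and supply lipids. GCPs divide in the external granule layer and belong to a lineage that runs from Atoh1 to Neurod1, so astroglial transcripts are not a usual feature of these cells. A Percoll fraction is enriched by density and not by a marker, and other cell types can remain in it.

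The table held 15071 counts for 1 cell (library group 2 cell 12), which had no count of any member, and 1110182 to 8616017 counts for the others, with a median of 3604792. A median of 4312 genes was detected per cell. The number of genes was 13533 and 12684 in 2 cells and at most 6420 in all others. Both belonged to the 5 cells that carried most of the astroglial counts, so the comparison of classes is also given without both. Neurod1, a transcription factor of the granule lineage, was detected in every cell and reached 100 CPM in 101. Zic1, another transcription factor of this lineage, was detected in 108 cells and reached 100 CPM in 75. Most cells thus carried genes of the granule lineage, which does not show that they were precursors. The paper used Mki67 as a marker of GCPs and Dcx as a marker of granule cells. Mki67 reached 100 CPM in 32 cells and Dcx in 83.

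Promoter sequence is shown for Fabp7, Slc1a3 and Apoe, because these genes were among those that shared the astroglial-rich cells described next. The sequences are those of RefSeq on GRCm38.p6, read 5′ to 3′ on the strand of the gene, from 250 bases before the RefSeq start and only outside the GENCODE gene. Windows were matched for 6 of the 8 members, and none for Aqp4 and Sparcl1. The Fabp7 window lies at chr10:57784673-57784880 on the plus strand, that of Slc1a3 at chr15:8710808-8711057 on the minus strand and that of Apoe at chr7:19699189-19699438 on the minus strand. Capitals mark a match on either strand to 1 of 4 short motifs, TTCNNNGAA for STAT factors, TTGGC for one arm of the nuclear factor I (NFI) site, TGGGAA for RBPJ, the DNA-binding partner of Notch, and ACAATG for SOX factors.
Fabp7: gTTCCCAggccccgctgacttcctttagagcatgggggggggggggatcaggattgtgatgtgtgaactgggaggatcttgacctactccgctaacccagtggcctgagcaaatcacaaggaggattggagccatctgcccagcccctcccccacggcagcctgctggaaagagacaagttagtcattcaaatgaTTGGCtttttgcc
Slc1a3: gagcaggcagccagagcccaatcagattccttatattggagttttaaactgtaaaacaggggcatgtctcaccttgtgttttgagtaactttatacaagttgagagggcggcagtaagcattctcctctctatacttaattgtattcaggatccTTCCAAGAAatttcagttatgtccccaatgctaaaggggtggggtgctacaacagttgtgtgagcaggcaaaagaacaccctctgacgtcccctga
Apoe: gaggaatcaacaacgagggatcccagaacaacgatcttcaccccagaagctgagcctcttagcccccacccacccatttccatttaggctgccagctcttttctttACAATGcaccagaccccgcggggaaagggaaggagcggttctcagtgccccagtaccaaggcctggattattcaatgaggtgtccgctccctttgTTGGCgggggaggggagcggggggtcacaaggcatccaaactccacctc
The Slc1a3 window held the STAT letters, the Fabp7 window held the NFI and RBPJ letters, and the Apoe window held the NFI and SOX letters. No motif was common to all 3 windows, and no motif contains another. Over the 6 matched members, 1 held the STAT letters, 3 the NFI letters, 3 the RBPJ letters and 1 the SOX letters. A member was counted if any of its windows held the letters, and Apoe had more than 1 window. The Gfap and Aldh1l1 windows, which held RBPJ letters, lie inside the GENCODE gene. The shares over all promoters are per window. Among 32851 promoter windows of the same length, 7.02% held the STAT motif, 41.5% the NFI letters, 21.6% the RBPJ letters and 10.7% the SOX letters. The matches describe these letters only.

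The astroglial genes were rare at high level and frequent at trace level. The glutamate transporter gene Slc1a3 was the member found most often, both by detection and at high level, with at least 1 count in 76 cells and at least 100 CPM in 19 (17.4%, 95% Wilson interval 11.5% to 25.6%). Fabp7, the fatty acid binding protein of radial and Bergmann glia, was next by the number of high cells, with 43 cells detected and 14 at 100 CPM (12.8%, interval 7.81% to 20.4%). These intervals cover only the sampling of cells taken as independent, which cells of a library group are not. The libraries carry no molecular identifiers.

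Sparcl1, a matrix protein secreted by astrocytes, was detected in 46 cells and reached 100 CPM in 8. Apoe, the main lipid carrier released by astrocytes, was detected in 32 cells and reached this level in 7. Aqp4, the water channel of astrocyte endfeet, was detected in 47 cells and reached it in 6. Aqp4 and Sparcl1 were therefore detected in about as many cells as Fabp7 and were high in fewer.

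Gdf10, a growth factor gene of Bergmann glia, was detected in 19 cells and reached 100 CPM in 3. Gfap, the intermediate filament of mature astrocytes, was detected in 11 cells and reached this level in 2, at 333 and 599 CPM. Aldh1l1, a folate enzyme used as a pan-astrocyte marker, was detected in 7 cells and in none at 100 CPM, and a count of 0 among all cells allows a share of up to 2.75%. Gfap and Aldh1l1 were thus the rarest of the 8.

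**Figure D1:**
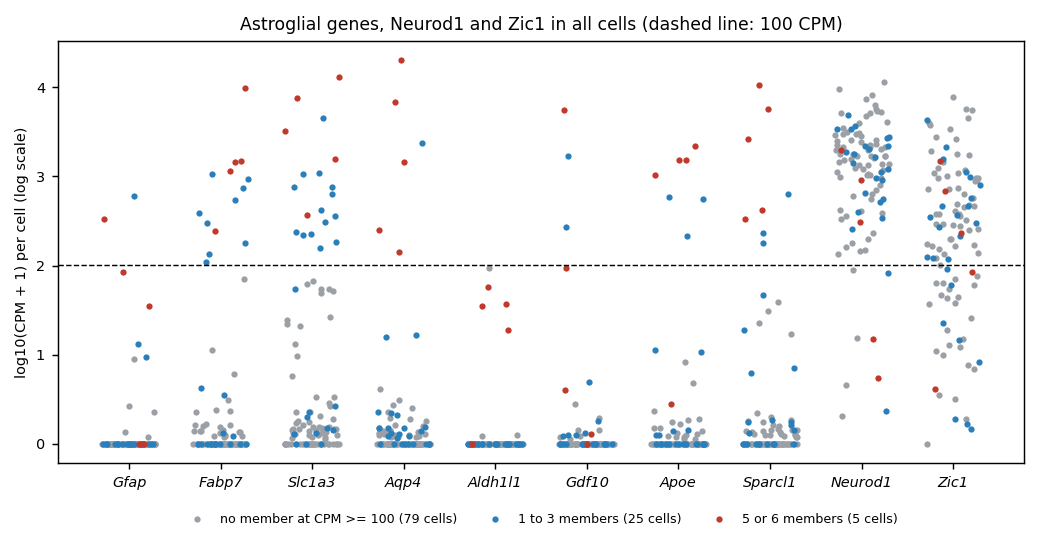
Levels of the 8 astroglial genes, Neurod1 and Zic1 in each cell as log10(CPM + 1), with points coloured by the number of astroglial genes at 100 CPM or more in the cell and a dashed line at 100 CPM. Most cells lie near 0 for the astroglial genes, while Neurod1 and Zic1 lie above the line in 101 and 75 cells.

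Counts of 1 to 5 lie far below 100 CPM in every cell but the shallow one, which had no member count. Low counts were therefore separate from the high cells for every member by definition. They made up 37 of the 47 cells with Aqp4, 30 of 46 with Sparcl1, 21 of 32 with Apoe and 12 of 19 with Gdf10. They made up 41 of 76 cells with Slc1a3 and 23 of 43 with Fabp7, but only 3 of 11 with Gfap and 2 of 7 with Aldh1l1. The median share of low counts among detected cells was 58.6% over the 8 members and 47.1% over all listed genes, and 42.9% of all nonzero values in the table were counts of 1 to 5. Low counts were therefore common in the table as a whole. Between the levels lay 4 cells each for Aqp4, Gdf10 and Apoe, 6 each for Gfap and Fabp7, 5 for Aldh1l1, 8 for Sparcl1 and 16 for Slc1a3, so that most cells with Gfap or Aldh1l1 were neither low nor high. The highest value under 100 CPM was 15.7 for Aqp4, where the lowest above it was 139.7, and the highest value under it was 10.3 for Apoe, where the lowest above it was 214. For Aldh1l1 the highest value was 93.5 CPM, and for Gdf10 the nearest values were 93.9 and 271 CPM. They were 68.9 and 107.7 CPM for Fabp7, 65.5 and 155 CPM for Slc1a3, 45.4 and 180.7 CPM for Sparcl1, and 84.7 and 333 CPM for Gfap. In proportion, the gap at 100 CPM was thus widest for Apoe and narrowest for Fabp7 among the 7 genes with a value above it.

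With every cell but the shallow one thinned at random to 1110182 counts, the number of cells at 100 CPM was the same as before for each member. Detection fell to 27 of 108 cells for Aqp4, 30 for Sparcl1, 31 for Fabp7 and 59 for Slc1a3. The number of cells with a trace of these genes therefore followed the depth, and the number of high cells did not.

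The low counts of 6 members were more frequent in library groups that also held a cell with at least 1000 CPM of the same gene. For Aqp4, the other cells of such groups held 1 to 5 counts in 34 of 67 cases (50.7%), against 3 of 36 (8.33%) in the other groups. For Sparcl1 the shares were 55.3% and 7.41%, and for Apoe 39.6% and 3.70%. Gdf10 (26.5% and 4.17%), Fabp7 (32.8% and 8.82%) and Slc1a3 (53.6% and 32.4%) had the same direction. Gfap and Aldh1l1 never reached 1000 CPM. In library group 4 no cell held a count of Aqp4, while in library group 6, where 1 cell held 78165 counts, 81.2% of the cells under 100 CPM held 1 to 5. The same direction was found for 93.0% of the 3182 genes with 2 to 4 such library groups, with medians of 38% and 16%, so the direction was not particular to the members. Whether reads of a high cell were assigned to others of its library group was not tested.

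**Figure D2:**
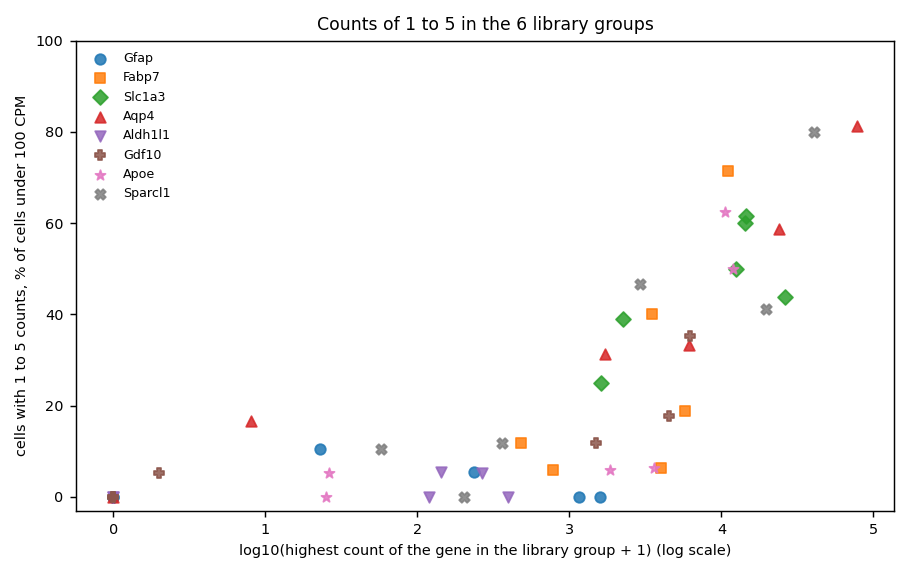
Share of cells with 1 to 5 counts among cells under 100 CPM (percent) against the highest count of the gene in the same library group, as log10(count + 1), with 1 point for each of 8 members and 6 library groups. Shares for Aqp4 run from 0 in library group 4 to 81.2% in library group 6, where the highest count was 78165.

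At least 1 member reached 100 CPM in 30 cells (27.5% of all, interval 20.01% to 36.6%), and the members shared few of them. A single member was high in 18 of these cells, 2 members in 6 cells and 3 members in 1 cell. No cell held 4, while 4 cells held 5 and 1 cell held 6. These 5 cells (4.59%, interval 1.98% to 10.3%) are called astroglial-rich. A further 67 cells held a count of some member without reaching 100 CPM, 41 of them with counts of 1 to 5 only, and 12 held no count. The number of members per cell thus had a gap between 3 and 5.

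The astroglial-rich cells were library group 3 cell 6 (A), library group 6 cell 12 (B), library group 5 cell 17 (C), library group 3 cell 18 (D) and library group 6 cell 18 (E). D and E were the cells with 13533 and 12684 genes detected, while A, B and C had 3967, 4902 and 6420. A had 1110182 counts, the lowest of the 5, and E had 7900211, the highest. No astroglial-rich cell came from library groups 1, 2 and 4.

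Fabp7 stood at 9909 CPM in A, 1488 in B, 1148 in C, 1446 in D and 241 in E. Slc1a3 stood at 13147 CPM in A, 3255 in B, 7555 in C, 1577 in D and 368 in E. Both genes were high in all 5 cells, highest in A and lowest in E.

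Aqp4 stood at 1443 CPM in A, 20295 in B, 6823 in C, 248 in D and 139.7 in E. Sparcl1 stood at 2626 CPM in A, 10539 in B, 5644 in C, 418 in D and 334 in E. Both were highest in B, and in D and E they were lower than in each of A, B and C.

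Apoe separated A from the others, with 1.80 CPM there and 2192 in B, 1033 in C, 1534 in D and 1514 in E. Gdf10 had the reverse pattern, with 5553 CPM in A, no count in B, 0.287 CPM in C, 93.9 in D and 3.04 in E. A and B, the 2 cells with the highest astroglial sums (32716 and 37770 CPM over the 8 genes), therefore differed in which members they carried.

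Gfap was absent in A and B and stood at 333 CPM in C, 33.9 in D and 84.7 in E. Aldh1l1 stood at 36.0 CPM in A, 34.1 in C, 57.2 in D and 17.8 in E, and had no count in B. Aldh1l1 was thus detected in 4 of 5 astroglial-rich cells, though below 100 CPM.

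**Figure D3:**
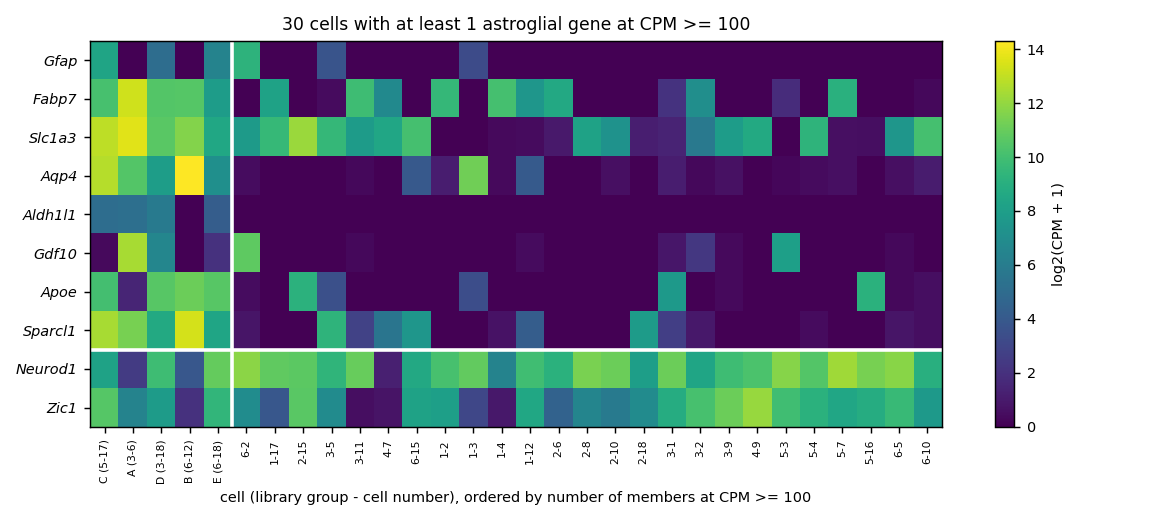
Heat map of log2(CPM + 1) for the 8 astroglial genes, Neurod1 and Zic1 in the 30 cells with at least 1 astroglial gene at 100 CPM or more, ordered by the number of such genes, with library group and cell number below each column. The 5 cells left of the white line (A to E) hold 5 or 6 members, and the cells to the right hold 1 to 3.

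The 5 cells held 94.6% of all Sparcl1 counts, 94.4% of Aqp4 counts and 87.2% of Apoe counts. They held 65.5% of Fabp7 counts, 62.5% of Slc1a3, 55.2% of Gfap and 53.1% of Gdf10. B alone held 69.4% of the Aqp4 counts. The 5 cells were chosen for high members, so large shares follow in part from that choice. Shares of counts also weigh deep cells more. As shares of summed CPM, the values were 94.0% for Sparcl1, 92.3% for Aqp4, 81.6% for Apoe and 76.0% for Fabp7. They were 74.0% for Gdf10, 69.2% for Slc1a3 and 41.7% for Gfap. By both measures Sparcl1 and Aqp4 had the largest shares, and Slc1a3 and Fabp7 had a larger part elsewhere than these 2. By level per kb of exon, which allows genes to be compared, the mean over the 5 cells was 2277 CPM per kb for Fabp7, 1332 for Sparcl1, 929 for Aqp4, 607 for Slc1a3, 587 for Apoe, 217 for Gdf10, 21.4 for Gfap and 6.43 for Aldh1l1. Single cells ranged from 193 to 7927 CPM per kb for Fabp7 and from 22.4 to 3256 for Aqp4, so neighbours in this order did not differ beyond the spread between cells.

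Outside these cells, the members occurred mostly singly. Slc1a3 alone was high in 7 cells, Fabp7 alone in 6 and Apoe alone in 2. Slc1a3 and Fabp7 were both high in 3 cells outside the astroglial-rich ones, so that 8 of 14 Fabp7 cells (57.1%) and 8 of 19 Slc1a3 cells (42.1%) were shared. Aqp4 was high in 6 cells, of which 5 (83.3%) were high in Fabp7, Slc1a3 and Sparcl1 each.

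Single high values occurred in cells with few of the other members. Aqp4 reached 2344 CPM in library group 1 cell 3, which had no count of Fabp7, Slc1a3 and Sparcl1 and 9.62 CPM of Apoe. Slc1a3 reached 4587 CPM in library group 2 cell 15, together with Apoe at 593 CPM. Gfap had its highest level, 599 CPM, in library group 6 cell 2, with Gdf10 at 1707 and Slc1a3 at 220.4 CPM but Aqp4, Apoe and Sparcl1 under 1 CPM. The cells highest in Gfap and in Aldh1l1 (93.5 CPM, library group 1 cell 13) were therefore not astroglial-rich.

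Across all cells, Pearson's r of log2(CPM + 1) between members ranged from 0.18 to 0.72 over 28 pairs, with a median of 0.46. Aqp4 and Sparcl1 formed the pair with the highest r. Without the 5 astroglial-rich cells, the range was -0.08 to 0.63 with a median of 0.06. These cells were defined by sharing members, so their removal had to lower the correlations. Gfap and Gdf10 had the r of 0.63, and library group 6 cell 2 was the one cell outside A to E high in both. These correlations describe cells that share library groups and depth.

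Neurod1 was low in some astroglial-rich cells and not in others. It stood at 4.504 CPM in A, 14.02 in B, 307 in C, 918 in D and 1963 in E. Among all cells, 3 had a lower Neurod1 level than A and 4 had a lower level than B, while 67 had a lower level than E. A and B were thus near the lower end of all cells, C below the median of 1591 CPM with 16 cells lower, and the 2 cells with the most genes within the range of the rest.

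Zic1 had another order. It stood at 84.7 CPM in A, 3.12 in B, 1481 in C, 229.6 in D and 688 in E. C, which held 6 members, had more Zic1 than 93 other cells, and B had more than 7. High astroglial genes and high Zic1 were therefore present in the same library in C.

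**Figure D4:**
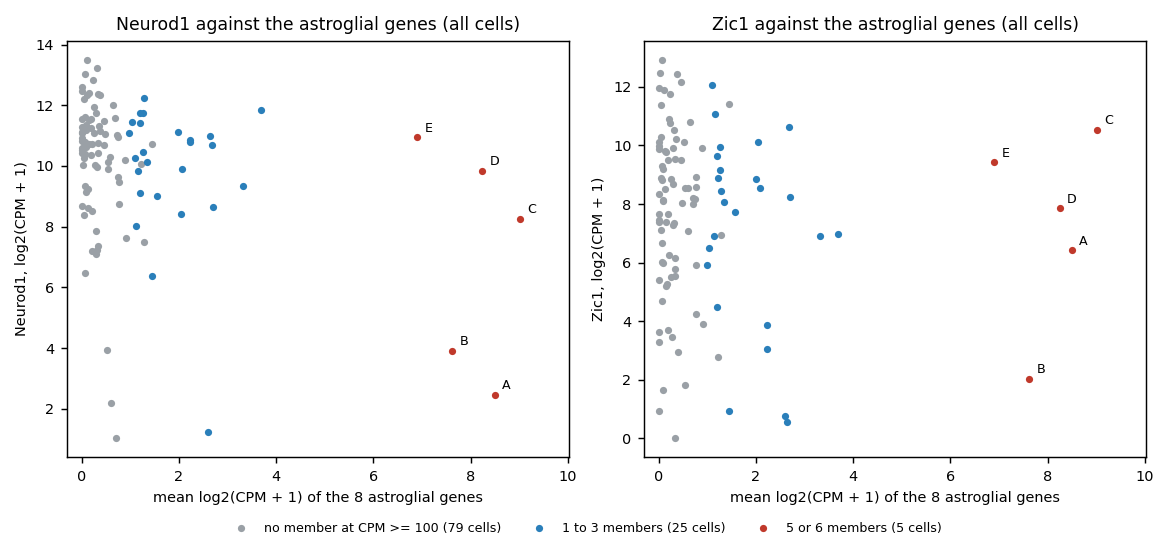
Neurod1 (left) and Zic1 (right) against the mean level of the 8 astroglial genes, all as log2(CPM + 1), in all cells, coloured by the number of members at 100 CPM or more, with the astroglial-rich cells named A to E. A and B lie low in Neurod1, at 4.504 and 14.02 CPM, and C, D and E lie at 307 CPM or more.

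In cells with fewer members, Neurod1 did not follow the astroglial genes. The 79 cells without a member at 100 CPM had 1.03 to 11611 CPM of Neurod1 (median 1692), and 75 of them reached 100 CPM. The 18 cells with 1 member had 81.9 to 4851 CPM (median 1314), and 17 reached 100 CPM. The 7 cells with 2 or 3 members had 1.35 to 3656 CPM (median 1637), and 6 reached it. The ranges of the classes overlapped throughout. For Zic1, 55 of 79, 13 of 18 and 4 of 7 cells reached 100 CPM, with medians of 289, 359 and 119 CPM. Of 14 cells outside A to E with high Slc1a3, 13 reached 100 CPM of Neurod1, and so did 7 of 9 with high Fabp7, 3 of 3 with high Apoe and 3 of 3 with high Sparcl1.

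Pearson's r of the members' mean log2(CPM + 1) was -0.32 with Neurod1 and -0.08 with Zic1 over all cells. Without D, E and the shallow cell these values were -0.38 and -0.13, and without the 5 astroglial-rich cells -0.17 and -0.15. Within library groups r ranged from -0.75 to -0.01 for Neurod1 and from -0.45 to 0.26 for Zic1. The sign for Neurod1 was therefore the same in each library group, while that for Zic1 was not.

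Low Neurod1 also occurred in cells without a member at 100 CPM. Under 20 CPM of Neurod1, 6 cells were found, namely A, B, library group 4 cell 7 and 3 cells with no member at 100 CPM. Those 3 cells kept other genes of the granule lineage list at 100 CPM. Library group 5 cell 11 had Zic1 at 1098 CPM with Pax6 and Meis1, and library group 1 cell 14 had Zic1 at 133 CPM with Pax6, Barhl1 and Meis1. Library group 2 cell 1 had Zic1 at 292 CPM with Dcx and Tubb3. The same cell also held Pax2 and Gad1 of the GABAergic interneuron list at 100 CPM, with a list sum of 846 CPM. Some of the 3 cells also held astroglial genes other than the members. Of the list of 33 further astroglial genes described after this, library group 1 cell 14 held 5 at 100 CPM (Slc1a2, Sox9, Cst3, Atp1b2 and Dbi), with a sum of 5658 CPM, the highest among the 79 cells, library group 2 cell 1 held 3 with a sum of 4798 CPM, and library group 5 cell 11 held 1 with a sum of 252 CPM. Library group 4 cell 7 had Fabp7 at 107.7 CPM, Slc1a3 at 359 CPM and Zic1 at 0.677 CPM, and its leading list was another one, that of the oligodendrocyte lineage.

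Fabp7 and Slc1a3 were also present in cells that carried genes of the oligodendrocyte lineage. The 12 genes of that list, among them the progenitor genes Pdgfra, Sox10 and Gpr17 and the myelin gene Mbp, summed to 23092 CPM in library group 1 cell 4, 18729 in library group 4 cell 7 and 17937 in library group 3 cell 11. The next highest sum was 7811 CPM, in a cell with no member at 100 CPM. Fabp7 stood at 1069, 107.7 and 930.1 CPM in the 3 cells, and Zic1 at 0.924, 0.677 and 0.468 CPM. Aqp4, Apoe, Gfap and Gdf10 stayed under 1 CPM in all 3. Slc1a3 stood at 0.308, 359 and 228 CPM, and Sparcl1 at 45.4 CPM in library group 4 cell 7, so Fabp7 was high in all 3 cells and Slc1a3 in 2. Neurod1 stood at 81.9, 1.35 and 2011 CPM, and thus differed among them.

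A separate list of 35 further astroglial genes, 33 of them found in the table by the listed symbol, was used to describe the 5 cells beyond the 8 members. Nes and Plpp3 were not found under these symbols, and other symbols were not searched. A held 16 of these genes at 100 CPM or more, B 23, C 15, D 10 and E 11. The cells without members held 0 to 5 (median 2), and cells with 1 to 3 members held 0 to 7 (median 2). The 5 astroglial-rich cells therefore lay above all others by this count, while cells with 1 to 3 members had the same median as cells with none. By the summed level of these genes, A, B and C lay above all others, but D (4223 CPM) and E (2943 CPM) did not. The highest sum was 5658 CPM among cells without members and 6548 CPM among cells with 1 to 3. D and E also had the most genes detected. At least 3 of these genes reached 100 CPM in 10 of the 25 cells with 1 to 3 members (40%) and in 19 of the 79 without (24.1%), with median sums of 1382 and 874 CPM. Sox9, a transcription factor of glial fate, the gap junction gene Gja1 and Dbi reached 100 CPM in all 5 cells. Sox9 and Dbi were not limited to them, since 19 and 16 of the 79 cells without members also reached this level, whereas for Gja1 it was 3.

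Hopx, a gene of Bergmann glia, was detected in 8 cells and in none at 100 CPM. These included all 5 astroglial-rich cells, at 3.60 to 12.5 CPM, and no cell without members. The Notch targets Hes1 and Hes5 reached 100 CPM in 2 and 0 of the 5 cells, with 152 CPM as the highest level of Hes1 and 2.58 as that of Hes5. No cell without members held a count of Hes1, while Hes5 reached 2.50 CPM in such cells. Tnc, an extracellular matrix gene, and Ttyh1, a membrane protein gene of glia, reached 100 CPM in 3 of the 5 cells and in none of the cells without members.

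In D and E, genes of several other lineages reached 100 CPM beside the members. D held 7 of 12 granule lineage genes at 100 CPM and E held 8, against 1 in A (Pax6), 1 in B (Dcx) and 4 in C. D and E also held 4 and 5 of 12 oligodendrocyte genes and 5 and 3 of 9 listed microglial genes, including C1qb and Ctss in both. No microglial gene reached 100 CPM in A, B and C, and Olig1 in B was the only oligodendrocyte gene. All 7 cycling genes reached 100 CPM in D and E, 6 of 7 in C (Mki67, Top2a, Pcna, Ccnd2, Ccnb1 and Cdk1), and 2 each in A (Top2a and Ccnd2) and B (Pcna and Ccnd2). The summed microglial level was 1352 CPM in D, 745 in E, 44.7 in C, 0.901 in A and 0 in B, against 0 to 714 CPM in cells without members. No doublets were called or removed, and whether a chip site held more than 1 cell was not tested.

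**Figure D5:**
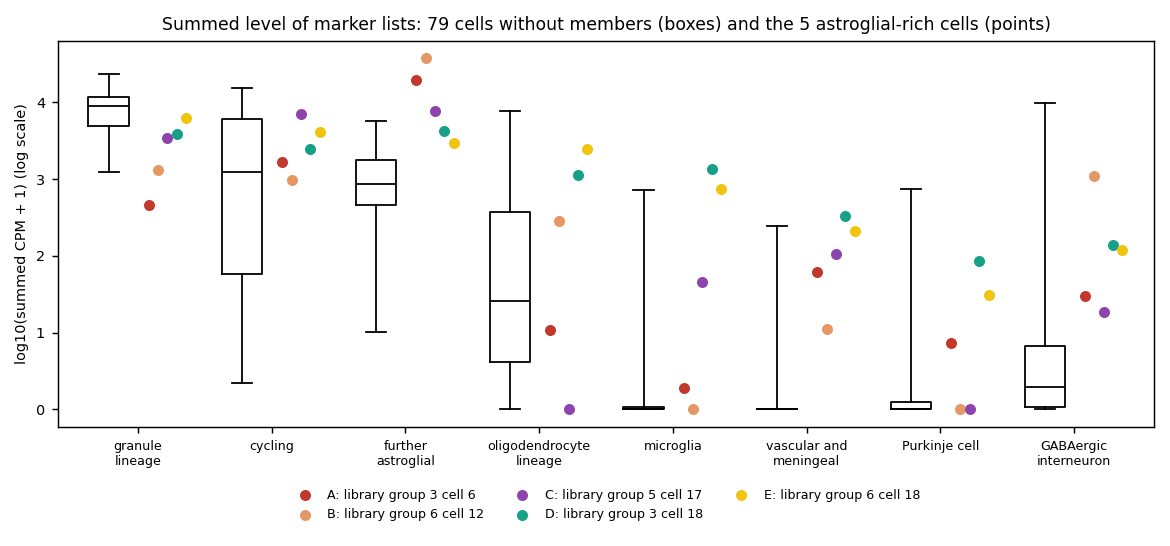
Summed level of 8 lists of marker genes as log10(summed CPM + 1), with boxes (median, quartiles, and whiskers to the lowest and highest cell) for the 79 cells without members and coloured points for the 5 astroglial-rich cells A to E. Microglial sums are 1352 CPM in D and 745 CPM in E. The sums of further astroglial genes are 19454 CPM in A, 37671 in B, 4223 in D and 2943 in E.

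The 10 genes whose pattern over all cells was most like the members' mean included Tnc (r = 0.82), Ttyh1 (0.81), the glutamate receptor gene Grm3 (0.80), Pla2g7 (0.77), Mmd2 (0.73), Ddah1 (0.71), the glycolytic enzyme gene Aldoc (0.69), Sparc (0.68) and the lipid phosphatase gene Ppap2b (0.67), among 7329 genes ranked. Only genes at 100 CPM in at least 4 cells were ranked, and for Tnc, Ttyh1 and Grm3, 3 of the 4 such cells were astroglial-rich. Of these 10 genes, 8 were again among the first 10 in the 106 cells left without D, E and the shallow cell. Pla2g7 and Sparc were not ranked there, since they no longer reached 100 CPM in enough cells. A, B and C were kept, so the second ranking is not independent of the first. Grm3 stood at 10.3 to 697 CPM in the 5 cells and at 24.3 CPM or less in cells without members. Ddah1 was the one at 100 CPM or more in all 5 cells, with 259 to 4210.1 CPM, and reached 319.5 CPM at most in cells without members. The other 9 overlapped 100 CPM within the astroglial-rich cells.

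To compare the astroglial-rich cells with the 79 cells without members over all genes, counts were summed per class in each library group, which gave 3 sums against 6. The members defined the classes and were left out. By edgeR's quasi-likelihood test with Benjamini-Hochberg adjustment, 0 of 11696 genes were called at an adjusted p-value under 0.01 (0% called), 639 genes (5.46%) had an unadjusted p-value under 0.05, and DESeq2 called 401 genes on the same sums. The smallest adjusted p-value was 0.0101, for Mn1, a transcriptional coactivator, with 32.6, 887 and 492 CPM in the 3 astroglial-rich sums and 0.0547 to 0.141 CPM in the others. At an adjusted p-value under 0.05, 11 genes (0.094% called) were higher and none lower. They included Clu and Id3, which are on the list of further astroglial genes, and also Ppap2b, which was among the 10 genes above. The others were Mn1, Emp2, Nid1, Mcc, Klhl25, Gjb6, Mfge8 and Ccdc80, which are not on the lists of astroglial genes. These 11 genes were named after their values were seen. All 11 were higher in 3 of 3 sums, and for Gjb6, a gap junction gene of astrocytes, the sums stood at 16.5, 528 and 204 CPM against 0 to 0.0390. Genes so near 0 in the sums without members passed the expression filter only through the astroglial-rich sums, so their direction was fixed by the filter.

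The test had little power for sums of 1 or 2 cells. In simulated data of this design, 9 of 97 genes with a log2 change of 5 and 29 of 103 with a log2 change of 8 were called. The median log2 difference over all tested genes was -0.72, and values relative to it are given for Neurod1 and Zic1.

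Neurod1 stood at 792, 307 and 1324 CPM in the astroglial-rich sums of library groups 3, 5 and 6 (808 ± 509, SD, n = 3), and at 731 to 3965 CPM in the 6 sums without members (2128 ± 1159, SD, n = 6). The ranges overlapped. The fitted log2 difference was -1.97 ± 0.61 (SE), or -1.24 relative to the median gene, with an edgeR p-value of 0.00627 and an adjusted p-value of 0.467. Within library groups, Neurod1 was lower in the astroglial-rich sum in 3 of 3, by 1.92-fold in group 3, 9.55-fold in group 5 and 1.58-fold in group 6. Without D and E, the sums of groups 3 and 6 were the single cells A and B, which were 337-fold and 149.5-fold lower than the sums without members, and the fitted difference was -4.54, with an adjusted p-value of 0.135 by edgeR. The size of the difference in Neurod1 therefore depended on D and E.

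Zic1 stood at 209.5, 1481 and 463 CPM in the astroglial-rich sums (718 ± 673, SD, n = 3) and at 302 to 1605 CPM in the others (885 ± 545, SD, n = 6). The fitted log2 difference was -0.75 ± 0.74 (SE), with an adjusted p-value of 0.957 by edgeR, and -0.03 relative to the median gene. A difference in Zic1 was not detectable. Within library groups, Zic1 was lower in the astroglial-rich sum in 3 of 3, by 2.85-fold in group 3, 1.04-fold in group 5 and 1.34-fold in group 6, and without D and E it was 7.06-fold lower in A and 199.8-fold lower in B than in the sums without members. The fitted difference without D and E was -1.01. Relative to the median gene it lay between -1.29 (without library group 5) and 1.57 (without D and E), with -1.11 under the block by library group and 0.55 with DESeq2 size factors, so the direction relative to other genes was not stable. Neurod1 stayed below the median gene under each of these.

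Of the lists, 20 of the 28 tested further astroglial genes had an unadjusted edgeR p-value under 0.05 and 25 were fitted higher. Over all 11696 genes tested, 639 had such a p-value and 3992 were fitted higher. The median log2 difference was 6.00 for this list, against -0.72 over all genes. A gene near 0 in the sums without members passed the expression filter only if it was high in the astroglial-rich sums. For such genes the direction was fixed by the filter, so these counts are a description only. For the granule lineage list, 3 of 12 genes had an unadjusted p-value under 0.05 and the median was -1.002. For microglial genes these values were 6 of 8 and 6.35, and the microglial level of D and E is given above. For cycling genes they were 0 of 7 and -0.37, for oligodendrocyte genes 3 of 10 and 0.74, and for genes of GABAergic interneurons 2 of 6 and -1.90. For the vascular list they were 1 of 3 and 5.58, and for the Purkinje cell list 0 of 2 and -0.16. By edgeR, no gene of any list was called at an adjusted p-value under 0.01. DESeq2 on the same sums tested a different set of genes after its own filter. It called 13 further astroglial, 4 vascular, 3 microglial and 1 oligodendrocyte gene higher, and 1 granule lineage and 1 GABAergic gene lower. Over all 11380 genes with an adjusted p-value by DESeq2, 210 were called higher and 191 lower. How many genes of each list DESeq2 tested was not counted, so no share per list is given. Without D, E and the shallow cell, the list medians by edgeR were 7.22 for 25 further astroglial genes (of which Id3 was called, with an adjusted p-value of 0.00799 by edgeR), -1.90 for 12 granule lineage genes, -0.21 for 7 cycling genes, -6.41 for 8 oligodendrocyte genes and -9.19 for 5 GABAergic genes, against -2.58 over all genes. A single gene remained tested for each of the microglial (-2.04), vascular (13.14) and Purkinje cell (-2.44) lists. The direction for the oligodendrocyte list therefore turned without these cells. No direction can be given for the microglial list, whose 1 remaining gene, C1qb, lay above the median of all genes.

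By library group, the summed level of Slc1a3 ranged from 41.7 CPM in group 1 to 482 in group 3, and that of Fabp7 from 5.99 in group 4 to 411 in group 3. Aqp4 ranged from 0 in group 4 to 1031 in group 6, and Sparcl1 from 2.73 in group 1 to 572 in group 6. Gfap had no count in groups 2 and 4 and reached 29.3 CPM in group 6. The summed levels thus followed the few high cells of each library group. At least 1 member was at 100 CPM in 5, 5, 7, 2, 5 and 6 cells of library groups 1 to 6, so cells with a high member were present in each.

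On GRCm38, the GENCODE annotation places Gfap at chr11:102887336-102900912, Fabp7 at chr10:57784881-57788450, Slc1a3 at chr15:8634124-8710764, Aqp4 at chr18:15389496-15410982, Aldh1l1 at chr6:90486427-90600203, Gdf10 at chr14:33923587-33937983, Apoe at chr7:19696109-19699188 and Sparcl1 at chr5:104079111-104113733. Fabp7, Gdf10 and Apoe overlap no other annotated gene. Gfap, Aqp4, Aldh1l1 and Sparcl1 overlap a noncoding gene on the other strand, and Slc1a3 and Aldh1l1 overlap transcripts of uncertain or noncoding status on the same strand. Neurod1 overlaps Cerkl on the same strand and Zic1 overlaps Zic4 on the other. Counting on strand is not stated for these data, so reads of such partners cannot be told apart.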

How the data were processed

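Single-cell RNA-seq was made from 109 cells of P7 cerebella. Per the labels, the authors aligned reads to mm10 with STAR 2.4.1d and counted them with HTSeq 0.6.1. The deposited values are raw counts per gene and cell, without normalization. Annotation and strand setting are not given in the sources used here. The table lists genes with a count in at least 3 cells. Table columns were assigned through the sample titles, and no cell was removed. No 2 cells had identical counts. The library groups follow a code in the sample titles. The study names batches, and nothing in the labels says that these are them.

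CPM was the count of a gene scaled to counts per 1e6 in its cell. Counts of 1 to 5 were called low and a level of at least 100 CPM high. The thresholds, members and gene lists were chosen with earlier results of these data known. Percentages have Wilson intervals at 95% confidence, and a share of 0 is given the limit that 3 counts allow. Correlations used log2(CPM + 1). Cells with at least 4 members at 100 CPM were compared with cells with none, as counts summed per class and library group, with edgeR 4.0.16 in R 4.3.3 (filterByExpr, TMM, quasi-likelihood test, Benjamini-Hochberg adjustment, threshold 0.01), after a test on simulated data. The p-values measure the spread between these sums, which may be technical. DESeq2 1.42.0 was an alternative. Other alternatives were size factors, no filter, a library group block, each library group left out, 3 or 5 members, 50 or 200 CPM, low counts up to 10, thinned counts, a pseudocount of 10, ranks, all other cells as comparison, a threshold of 0.05, and cells without those over 7000 detected genes or under 100000 counts. Genes named were the members, Neurod1, Zic1, the 10 genes most correlated with the members' mean among genes at 100 CPM in at least 4 cells, called genes, and examples from the lists. Other genes and cells were named after their values were seen. Some genes of these lists are counted but not reported here by name. Positions are those of GENCODE for GRCm38.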

Additional observations from a re-analysis of the deposited data

Results flagged for a closer look

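The summed level of Fabp7 in library group 3 was 411 CPM, against 144 CPM in the next highest of the 6 library groups, and its gap was large for the range of the 6. The summed level of Aqp4 in library group 6 was 1031 CPM, against 323 CPM in the next. A single cell, library group 3 cell 6, held 22.1% of all Fabp7 counts, and library group 6 cell 12 held 69.4% of all Aqp4 counts. Of 23 sets of library group values, 2 stood out. The rule's rate of about 1 in 20 is for independent and normally distributed values. Sums led by single cells, and several measures of the same genes, are neither, so the 2 cannot be weighed against that rate.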

How the results depend on the processing

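The comparison of astroglial-rich cells with cells without members called 0 genes at an adjusted p-value under 0.01 by edgeR, and 401 with DESeq2 (210 higher and 191 lower), 1 with DESeq2 size factors in edgeR (Mn1), 2 without the cells of unusual depth or gene number (Agmo and Id3), and 11 at a threshold of 0.05. The replicate block by library group called 4 genes (Ednrb, Nid1, Mmd2 and Ppap2b). Deviations within library groups correlated by 0.0180 to 0.0257, so the block was not taken as a pairing. Leaving out each library group gave 0 to 0 calls. The genes in parentheses were named after their values were seen, all were fitted higher, and the cause of these differences was not tested. The median log2 difference of all genes moved from -0.72 to -1.01 with size factors, to -0.05 with the block and to -2.58 without the unusual cells. The log2 difference of Neurod1 ran from -4.54 to -1.57 and that of Zic1 from -1.85 (without library group 5) to -0.42 over the alternatives, and no adjusted p-value of either was under 0.01. By DESeq2 the adjusted p-value of Neurod1 was 0.0154.

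The number of astroglial-rich cells was 5, and 3 without the cells of unusual gene number, and ranged from 3 to 5 when each library group was left out, with 3 without library group 3 or 6. Cells with at least 1 high member numbered 37 at 50 CPM, and 23 to 28 when each library group was left out. Of the remaining values under all alternatives, 328 stayed within the limits set, 30 moved and 8 passed the threshold. Depth limits the counts of 1 to 5, since thinning lowered the number of cells with such counts for 7 of the 8 members, Gfap being the exception. With 5 astroglial-rich cells in 3 library groups, sums of 1 or 2 cells limit every comparison.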

Other observations

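Among cells without an astroglial-rich pattern, library group 5 cell 16 had Apoe at 565 CPM with 4 microglial genes at 100 CPM (C1qa, C1qb, Ctss and Tyrobp) and a microglial sum of 1164 CPM, and its other 7 members stayed under 1 CPM. Its Neurod1 level was 2702 CPM. In library group 2 cell 15, Apoe at 593 CPM stood beside Slc1a3 at 4587 CPM and no microglial gene. In library group 3 cell 1, Apoe at 214 CPM stood beside a microglial sum of 1.23 CPM. The 3 cells with high Apoe outside the astroglial-rich cells thus differed in what else they carried.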
